A study of Rattus norvegicus with 9 samples.

Results

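Genes carried by blood and mast cells, 10 in all, were followed in the rat left ventricle: Alas2, Hbb and Slc4a1 of red cells, Itga2b and Pf4 of platelets, S100a8 and S100a9 of neutrophils, and Cpa3, Cma1 and Kit of mast cells. They were found by gene name in the 3 deposited transcript tables, and their 15 transcripts (of 55767) were summed by name, which gave 10 genes of 22608. All 10 passed the filter on low counts and were among the 15467 genes tested. The study sequenced left ventricle RNA in 3 groups of 3 libraries each, from rats of the Sprague-Dawley strain. All groups share the strain, the tissue and an age of 8 weeks plus 28 days, and they differ in treatment. One group was given saline, one angiotensin II (Ang II), and one Ang II together with sodium butyrate (Ang II+NaBu). Ang II is a peptide hormone that constricts vessels and raises blood pressure, and sodium butyrate, from a fatty acid made by gut bacteria, blocks histone deacetylases. The labels give no dose, and no group on butyrate without Ang II was analysed here. Since the labels name no individual animals, replicates may be technical in part, and a p-value covers only the spread seen among these libraries.

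Red cells and platelets carry RNA left over from their precursors in the marrow, the erythroblast and the megakaryocyte, and they reach a heart sample with the blood in its vessels. Neutrophils arrive the same way and can also leave the vessels, whereas mast cells live in the tissue and store proteases in granules. GATA transcription factors, which bind sequences around the letters GATA, drive many erythroid, megakaryocytic and mast cell genes. In RNA from whole tissue, fewer cells of a type and less RNA per cell cannot be told apart. The labels do not say whether the hearts were flushed of blood.

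Because genes of 3 of these lineages are known GATA targets, the promoters were searched for AGATAA on both strands, within 250 bases before the annotated start. RefSeq sequence of the rat build GRCr8 was at hand for 7 of the 10 genes (Alas2, Hbb, Itga2b, S100a9, Cpa3, Cma1 and Kit), and 4 of the 7 held the motif, against 10.3% of all 33469 rat promoters in the table. Of these 4, S100a9 is a neutrophil gene and lies outside the 3 lineages. The Alas2 window lies at chrX:22895284-22895349 on the + strand with the motif 136 bases upstream of the start. The Cpa3 window lies at chr2:104673257-104673322 on the - strand with the motif 55 bases upstream, and the Cma1 window at chr15:33390162-33390227 on the - strand with the motif 64 bases upstream. The S100a9 window lies at chr2:178490659-178490724 on the - strand with the motif 72 bases upstream. The Itga2b promoter held no AGATAA, and its window at chr10:87925853-87925918 on the - strand is shown for the related letters TGATAA, 55 bases upstream, which were looked for after the sequence had been read and occur in 7.97% of all promoters. Each sequence is written 5′ to 3′ in the direction of the gene with the motif in capitals, and a match is a run of letters, not a measured binding site.
Alas2: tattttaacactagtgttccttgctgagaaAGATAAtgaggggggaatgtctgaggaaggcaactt
Cpa3: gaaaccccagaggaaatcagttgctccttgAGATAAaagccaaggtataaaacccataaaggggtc
Cma1: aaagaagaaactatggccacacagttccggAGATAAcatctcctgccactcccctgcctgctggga
S100a9: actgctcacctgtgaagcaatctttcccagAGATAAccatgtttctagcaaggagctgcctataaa
Itga2b: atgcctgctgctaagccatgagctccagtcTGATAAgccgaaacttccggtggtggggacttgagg

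Library totals ran from 29284780 to 49865446 estimated counts, and ribosomal RNA took between 7.99% and 18.8% of them. Levels are given in CPM, a count's share of its library, after scaling with TMM, a method that evens out differences in library composition. Saline replicate 2 stood apart through atrial genes: 10 atrial markers summed to 6039 CPM there, and to 111 to 361 CPM elsewhere. The same library was lowest for 9 of 10 ventricular muscle markers (118146 CPM in sum, 144087 to 173255 elsewhere) and had the highest sum of the other white cell markers (566 CPM, 419 to 494 elsewhere). Saline replicate 3 held atrial transcripts too, at lower levels. Myl7, Bmp10 and Sln were at 27.2, 22.2 and 4.01 CPM there. In the libraries other than saline replicate 2 they reached at most 3.98, 0.693 and 0.341 CPM. Some fits below therefore leave out both saline replicates 2 and 3. Of the cells other than muscle, 15 of 15 endothelial and 22 of 22 other white cell markers were measured. Log2 differences are given with their standard error (SE) and with p-values from edgeR's quasi-likelihood test, adjusted by the Benjamini-Hochberg method over all genes tested. A gene is said to have risen or fallen only at an adjusted p under 0.05. Ang II was compared with saline, and Ang II+NaBu with each of these. The 3 comparisons share libraries, so a high or low library enters 2 of them.

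The clearest difference among the 10 genes was in the platelet pair, although Pf4 itself was not called (edgeR adjusted p = 0.0602). Itga2b fell 3.98-fold in Ang II+NaBu hearts relative to Ang II hearts, and Slc4a1 rose 1.59-fold in Ang II+NaBu hearts relative to saline hearts. These were the only calls among 30 gene comparisons in the main test. Of all genes tested, 0.957% fell in the comparison with Ang II and 3.01% rose in that with saline. Each call was lost when 1 library was left out, for most choices of that library. For Ang II against saline, 0 of the 10 passed in edgeR, and 6 had an unadjusted p under 0.05, against 5.94% of all genes. DESeq2 called 2, beside 23 rises and 34 falls among all genes.

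**Figure D1:**
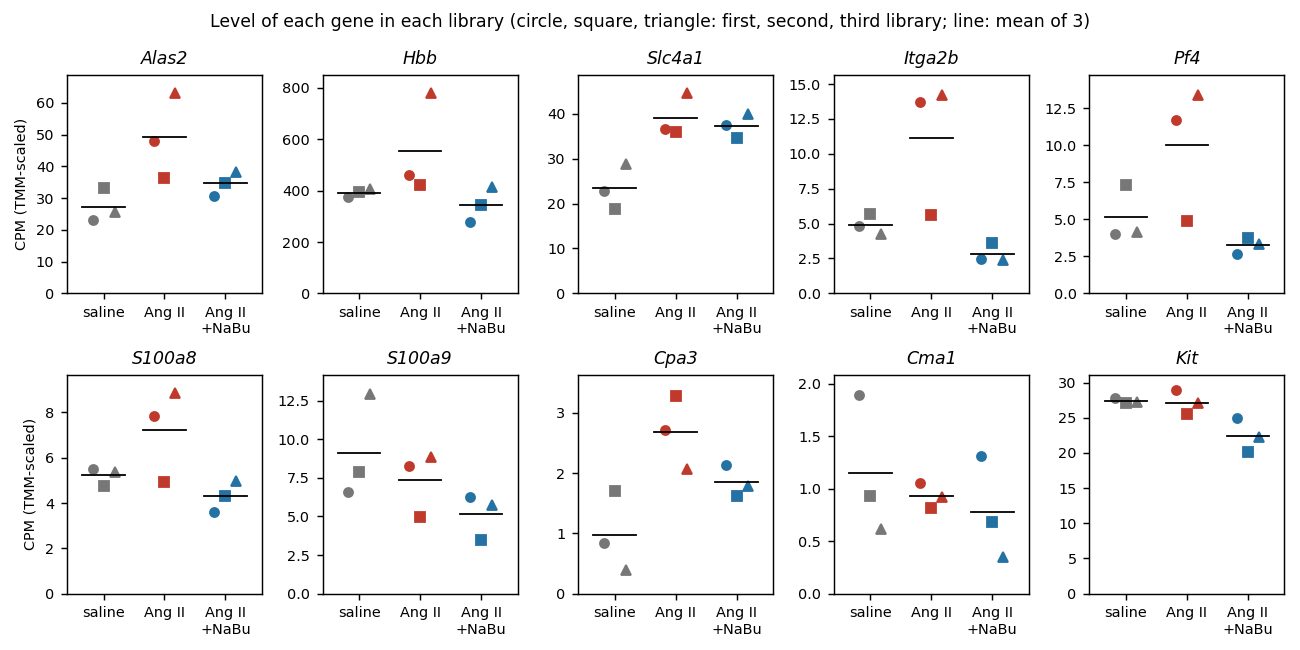
Level of each of the 10 genes in each of the 9 libraries, in TMM-scaled CPM on an axis that starts at 0. Circle, square and triangle are the libraries of a group in the order of their numbers, and the line is the mean of 3. Itga2b and Pf4 are high in 2 Ang II libraries, at 13.7 and 14.2 CPM for Itga2b, while the square stands at 5.6 CPM, near saline.

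Itga2b encodes the alpha chain of the fibrinogen receptor, glycoprotein IIb, through which activated platelets bind one another. It was at 4.8, 5.67 and 4.24 CPM in saline replicates 1, 2 and 3. It was at 13.7, 5.6 and 14.2 CPM in Ang II replicates 1, 2 and 3. It was at 2.46, 3.59 and 2.37 CPM in Ang II+NaBu replicates 2, 4 and 6. Ang II replicates 1 and 3 were above every saline library, Ang II replicate 2 lay within the saline range, and the 3 Ang II+NaBu libraries were below all 6 others. Group means were 4.9 ± 0.719, 11.2 ± 4.82 and 2.81 ± 0.678 CPM (SD, n = 3 each). With Ang II+NaBu against Ang II the log2 difference was -1.99 (SE 0.34, edgeR adjusted p = 0.0415). The call was kept without Ang II replicate 2 (adjusted p = 0.024), the low library, and lost without Ang II replicate 1 (0.18) or replicate 3 (0.134), without saline replicate 1 (0.0563), and without Ang II+NaBu replicate 2 (0.126), 4 (0.0987) or 6 (0.191). It was also lost under total count scaling (0.0642) and with the highest transcript (0.155). Against saline, the Ang II group differed by 1.19 (SE 0.332, edgeR adjusted p = 0.719) and the Ang II+NaBu group by -0.81 (SE 0.336, edgeR adjusted p = 0.173).

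Pf4 encodes platelet factor 4, a chemokine stored in platelet alpha granules that binds heparin. Its levels were 4.02, 7.29 and 4.16 CPM in the saline libraries, 11.7, 4.88 and 13.4 CPM in the Ang II libraries and 2.68, 3.77 and 3.35 CPM in the Ang II+NaBu libraries. The same 2 Ang II libraries were high and the same one was low as for Itga2b, and all Ang II+NaBu libraries were below all others. Means were 5.16 ± 1.85, 9.96 ± 4.48 and 3.27 ± 0.55 CPM. The log2 difference of Ang II+NaBu against Ang II was -1.61 (SE 0.373, edgeR adjusted p = 0.0602), which missed the threshold in edgeR, while DESeq2 gave an adjusted p of 0.00116. The difference was 0.95 (SE 0.367, edgeR adjusted p = 0.774) for Ang II against saline and -0.66 (SE 0.37, edgeR adjusted p = 0.303) for Ang II+NaBu against saline. Itga2b over Pf4, taken within a library so that depth cancels, stayed between 0.708 and 1.19 across the 9 libraries, while each gene alone ranged more widely.

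The rest of a list of 23 platelet genes was measured in full, and the list was drawn up with earlier results of these data known. For Ang II+NaBu against Ang II, 23 of 23 were lower, 1 (Itga2b) fell, and 10 were lower without overlap between the groups. Among all genes tested, 52.7% were lower, 0.957% fell and 17.5% were lower without overlap. At an unadjusted p under 0.05 stood 10 of the 23, against 22.4% of all genes. With DESeq2 7 fell (Alox12, Clec1b, Gp1ba, Itga2b, Itgb3, Pf4 and Tubb1), beside 653 falls among all 15467 genes. With only the 2 groups in the fit 5 of the 21 genes then tested fell, beside 720 falls among 15187 genes. Under total count scaling or with the highest transcript per gene 0 fell, beside 2 and 3 falls among all genes. The median log2 difference of the list was -0.97, also with Ppbp, at 0 in the Ang II+NaBu group, put at a bound of 3 counts per library; the median of all genes was -0.025. Without Ang II replicate 1 the list held 22 lower genes with a median of -0.77, and without Ang II replicate 3 it held 21 with a median of -0.99. For Ang II against saline, 19 were higher and 4 lower (49% and 51% of all genes), with a median of 0.53 (all genes -0.005). There edgeR and DESeq2 each called 0 of 23. In edgeR 4 had an unadjusted p under 0.05, against 5.94% of all genes. The median was 0.90 without saline replicate 2, and without saline replicates 2 and 3 all 23 were higher with a median of 1.0. None of the 23 separated the groups in the full fit, against 4.94% of all genes tested that were higher without overlap and 4.97% lower. Relative to saline, Ang II+NaBu had 2 higher and 21 lower genes, against 44.7% and 55.3% of all genes. The median was -0.47, or -0.44 with Ppbp at its bound (all genes -0.051). Neither edgeR nor DESeq2 called any. In edgeR 3 had an unadjusted p under 0.05, against 24.6% of all genes, and 5 were lower without overlap, against 14.1%. The count of higher and lower genes depended on the saline libraries. Without saline replicate 2 it was 8 higher and 14 lower, with a median of -0.15. Without saline replicates 2 and 3 it was 12 and 10, with a median of 0.01.

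Among the named platelet genes, Tubb1, the beta tubulin of the platelet's marginal band, was at 8.67, 1.6 and 10.9 CPM in the Ang II libraries, at 1.53, 3.75 and 2.27 CPM in the saline libraries and between 1.34 and 1.5 CPM in the Ang II+NaBu libraries. Its difference for Ang II+NaBu against Ang II was -2.33 (SE 0.595, edgeR adjusted p = 0.0741). Clec1b, the podoplanin receptor CLEC-2, was at 5.39, 1.51 and 4.81 CPM with Ang II and between 0.393 and 1.89 CPM with Ang II+NaBu. Both show the split within the Ang II group that Itga2b showed, high in replicates 1 and 3 and low in replicate 2. Gp6, the collagen receptor glycoprotein VI, was at 7.08, 1.54 and 3.9 CPM with Ang II, and Nfe2, a transcription factor of megakaryocytes, at 3.94, 2.32 and 4.11 CPM. At the other end, among genes with a mean of at least 1 CPM, stood Mmrn1, Selp and P2ry12. Whether their expression in other cells has a part in this was not tested. Mmrn1 (multimerin) is shared with endothelium and differed by -0.06 (SE 0.264), Selp (P-selectin), also endothelial, by -0.11 (SE 0.326), and P2ry12, an ADP receptor shared with tissue macrophages, by -0.14 (SE 0.228), each for Ang II+NaBu against Ang II.

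The summed level of the platelet list was 153, 94.4 and 143 CPM in Ang II replicates 1, 2 and 3, between 80.4 and 121 CPM in saline and between 66.5 and 88.1 CPM in Ang II+NaBu. The highest saline value, 121 CPM, was that of saline replicate 2, the library with the highest atrial sum. Endothelial markers moved with this comparison: 14 of 15 were lower with Ang II+NaBu than with Ang II (median -0.25), Egfl7, a secreted endothelial protein, fell, and their summed level was between 1986 and 2317 CPM in Ang II+NaBu, 2378 and 2722 in Ang II, and 2325 and 2683 in saline. The Egfl7 call was lost under total count scaling (adjusted p = 0.0636), with the highest transcript (0.092), and without any one Ang II or Ang II+NaBu library (0.0987 to 0.159). Of all genes tested, 52.7% were lower and 0.957% fell in that comparison. Of the 15 endothelial markers, 10 were lower without overlap (17.5% of all genes) and 7 had an unadjusted p under 0.05 (22.4%). DESeq2 gave 4 falls among them, beside 653 falls among all genes. Ventricular muscle markers moved the other way, with 9 of 10 higher in Ang II+NaBu than in Ang II, 6 of them without overlap (18.1% of all genes), and a median of 0.23. Their summed level was between 160090 and 173255 CPM in Ang II+NaBu and between 144087 and 152038 CPM in Ang II, and under total count scaling 6 of 10 were higher with a median of 0.13. The part of these differences in the platelet result was not tested.

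**Figure D2:**
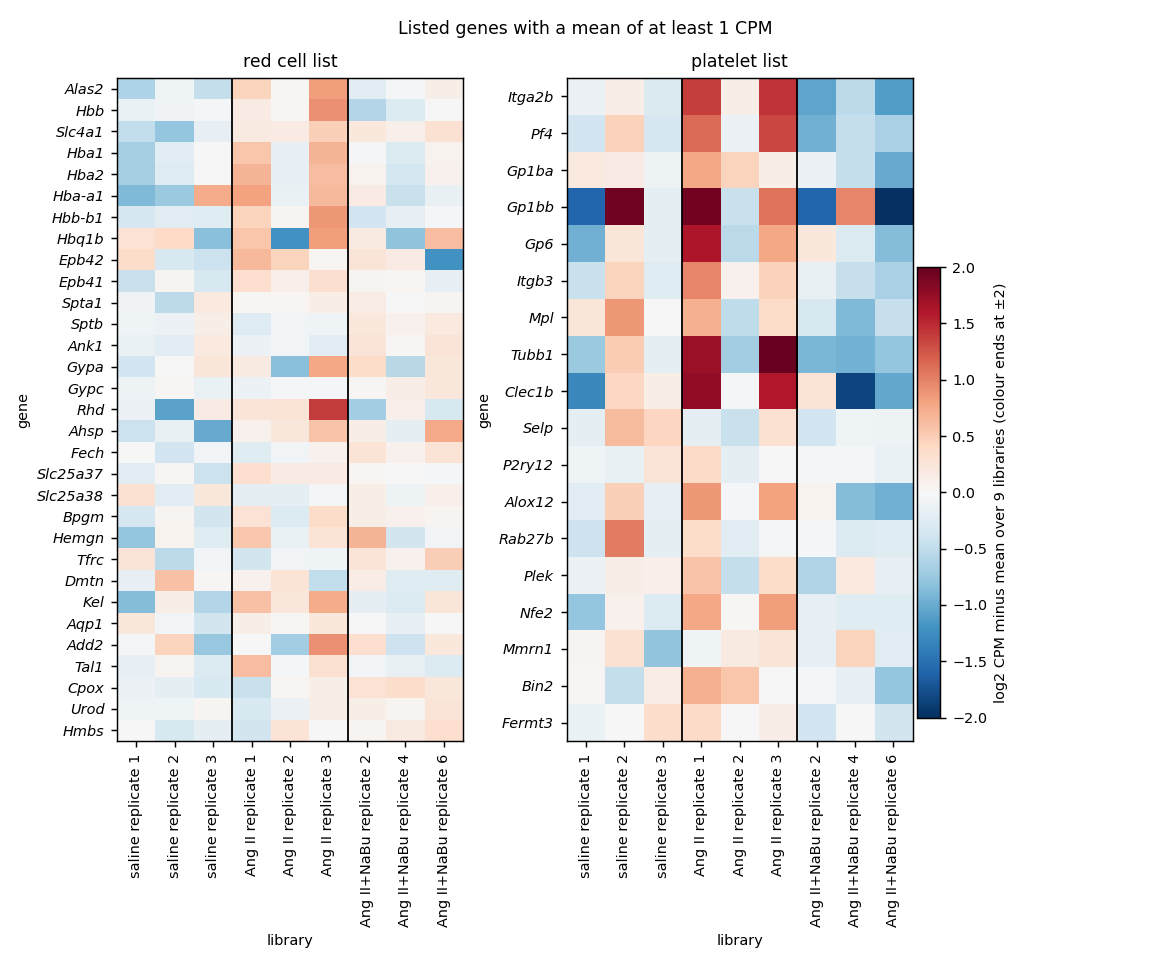
Genes of the red cell and platelet lists with a mean of at least 1 CPM (31 and 18 genes shown, rows) in the 9 libraries (columns). Colour is log2 CPM minus the gene's mean over the 9 libraries, red above and blue below, and ends at 2 on either side. Most platelet rows are red in Ang II replicates 1 and 3 and blue in the Ang II+NaBu libraries.

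Of the red cell genes, Alas2 encodes the erythroid aminolevulinate synthase, the first enzyme of heme synthesis in red cell precursors. It was at 23.2, 33.2 and 25.6 CPM in saline, 48, 36.4 and 63 CPM in Ang II, and 30.7, 34.8 and 38.3 CPM in Ang II+NaBu. Every Ang II library was above every saline library, and the Ang II+NaBu libraries overlapped both groups. The means were 27.4 ± 5.21, 49.1 ± 13.4 and 34.6 ± 3.76 CPM. The log2 difference of Ang II against saline was 0.84 (SE 0.2, edgeR adjusted p = 0.594; DESeq2 adjusted p = 0.0177). It was -0.51 (SE 0.198, edgeR adjusted p = 0.174) for Ang II+NaBu against Ang II and 0.34 (SE 0.199, edgeR adjusted p = 0.326) against saline.

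Hbb encodes a beta chain of haemoglobin, and its near-identical copy Hbb-b1 is listed separately, so the division of reads between the pair is uncertain. Hbb was at 376, 394 and 407 CPM in saline, 462, 424 and 779 CPM in Ang II, and 278, 345 and 413 CPM in Ang II+NaBu. The Ang II libraries were above all others, by a small margin in replicate 2 and a wide one in replicate 3. The means were 392 ± 15.6, 555 ± 195 and 345 ± 67.8 CPM. The log2 difference was 0.50 (SE 0.222, edgeR adjusted p = 0.836) for Ang II against saline, -0.69 (SE 0.222, edgeR adjusted p = 0.116; DESeq2 adjusted p = 0.0193) for Ang II+NaBu against Ang II, and -0.18 (SE 0.221, edgeR adjusted p = 0.656) for Ang II+NaBu against saline. Without Ang II replicate 3 the first of these was 0.18 and the second -0.34. Hbb-b1 was at 168, 184 and 178 CPM in saline, 288, 221 and 388 CPM in Ang II, and 163, 191 and 209 CPM in Ang II+NaBu, with the Ang II libraries again above all others.

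Slc4a1 encodes band 3, the anion exchanger of the red cell membrane. It was at 22.8, 18.9 and 28.9 CPM in saline, 36.6, 36 and 44.7 CPM in Ang II, and 37.4, 34.6 and 39.9 CPM in Ang II+NaBu. All 6 libraries that received Ang II, with or without NaBu, were above all 3 saline libraries, and the 2 treated groups overlapped. The means were 23.5 ± 5.03, 39.1 ± 4.9 and 37.3 ± 2.63 CPM. Slc4a1 rose in Ang II+NaBu against saline, by 0.67 on the log2 scale (SE 0.155, edgeR adjusted p = 0.0391). Left out one at a time, every library but saline replicate 3 took this call away, with adjusted p-values from 0.0519 to 0.157. For Ang II against saline the difference was 0.74 (SE 0.155, edgeR adjusted p = 0.446; DESeq2 adjusted p = 0.0111). Of all genes tested, edgeR called 0% there, and 3.01% rose in Ang II+NaBu against saline. For Ang II+NaBu against Ang II it was -0.07 (SE 0.153, edgeR adjusted p = 0.838).

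The group means of the red cell genes were ordered differently, with Ang II+NaBu lowest for Hbb and saline lowest for Alas2 and Slc4a1. Hbb over Slc4a1 within a library, a ratio chosen after its values were seen, was 16.5, 20.9 and 14.1 in saline, 12.6, 11.8 and 17.4 in Ang II, and 7.43, 9.97 and 10.4 in Ang II+NaBu. The Ang II+NaBu ratios were below all others, by -0.59 on the log2 scale relative to Ang II and -0.89 relative to saline, which is given as a description since the ratio was picked for it. Itga2b over Slc4a1 was between 0.0595 and 0.104 in Ang II+NaBu, 0.156 and 0.374 in Ang II, and 0.147 and 0.3 in saline, again lowest in the Ang II+NaBu libraries (log2 difference to Ang II -1.84). It pairs the 2 genes that passed the test, 1 in each direction, so it too is a description. A ratio shows that the pair changed unequally, not which of them moved.

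**Figure D3:**
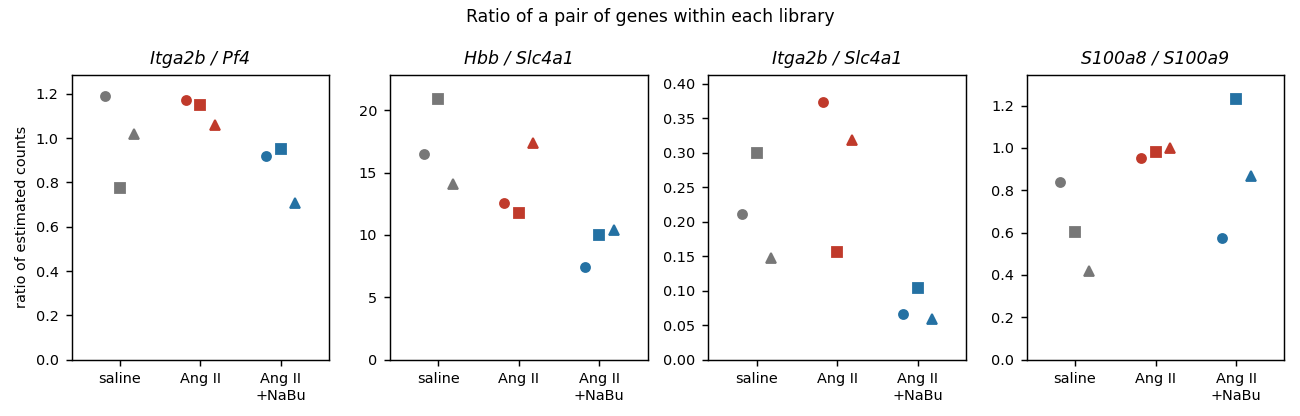
Ratio of estimated counts of a pair of genes within each library, on axes that start at 0. Circle, square and triangle are the libraries of a group in the order of their numbers. Hbb over Slc4a1 and Itga2b over Slc4a1 are lowest in the 3 Ang II+NaBu libraries. Itga2b over Pf4 lies between 0.708 and 1.19 and is lower in every Ang II+NaBu library than in every Ang II library.

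Of 46 red cell genes listed, 35 passed the filter, and Hbz and Gata1 were at 0 in all 9 libraries. For Ang II against saline 26 were higher and 9 lower (49% and 51% of all genes), with a median of 0.25, and 9 were higher without overlap (4.94% of all genes). edgeR called 0 of them, with 11 at an unadjusted p under 0.05, against 5.94% of all genes. DESeq2 called 3 (Alas2, Hbb-b1 and Slc4a1), beside 23 rises and 34 falls among all genes. Leaving out Ang II replicate 2 moved the median to 0.56, leaving out Ang II replicate 3 to 0.14, and leaving out saline replicate 2 to 0.47. The Ang II+NaBu group had 10 higher and 25 lower genes relative to Ang II, with a median of -0.17, against 47.3% and 52.7% of all genes. edgeR called 0, with 9 at an unadjusted p under 0.05 (22.4% of all genes), while with DESeq2 1 rose (Sptb) and 2 fell (Hbb and Hbb-b1), beside 862 rises and 653 falls among all genes. That balance rested on 2 libraries: without Ang II replicate 3 it was 18 higher and 17 lower (median 0.06), and without Ang II+NaBu replicate 4 it was 17 and 19 (median -0.02). Relative to saline, Ang II+NaBu had 24 higher and 11 lower genes (median 0.19), against 44.7% and 55.3% of all genes. Slc4a1 was the 1 gene of the 35 that rose, while 3.01% of all genes rose. An unadjusted p under 0.05 was found for 5 of the 35, against 24.6% of all genes. With DESeq2 2 rose (Cpox and Slc4a1), beside 1233 rises among all genes. Some listed genes are not confined to red cells. Tfrc, the transferrin receptor that all dividing cells use, differed by 0.44 (SE 0.187) for Ang II+NaBu against Ang II, but by -1.51 (edgeR adjusted p = 0.0122) when each gene was represented by its highest transcript, and by -1.53 (0.00546) against saline there. Cpox, a heme enzyme, differed by 0.36 (SE 0.139) and Ank1, a membrane skeleton protein also made in muscle, by 0.31 (SE 0.122). In the same comparison Hbb-b1 differed by -0.67 (SE 0.182), Hba-a1, an alpha haemoglobin with near-identical copies, by -0.62 (SE 0.405), and Rhd, a blood group protein, by -1.07 (SE 0.533). The summed level of the list was 3614 to 4288 CPM in saline, 5723, 4275 and 6417 CPM in Ang II replicates 1, 2 and 3, and 3974 to 4725 CPM in Ang II+NaBu. Ang II replicate 2, low for the platelet list, was also the lowest Ang II library here.

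S100a8 and S100a9 encode the 2 subunits of calprotectin, a calcium-binding protein that fills the neutrophil's cytoplasm. S100a8 was at 5.52, 4.76 and 5.39 CPM in saline, 7.86, 4.91 and 8.85 CPM in Ang II, and 3.61, 4.3 and 4.97 CPM in Ang II+NaBu. Again Ang II replicates 1 and 3 were above every other library and replicate 2 was not, and every pair of groups overlapped. The means were 5.22 ± 0.406, 7.2 ± 2.05 and 4.29 ± 0.681 CPM. The log2 difference was 0.47 (SE 0.237, edgeR adjusted p = 0.874) for Ang II against saline, -0.75 (SE 0.237, edgeR adjusted p = 0.113) for Ang II+NaBu against Ang II and -0.28 (SE 0.238, edgeR adjusted p = 0.507) for Ang II+NaBu against saline.

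S100a9 was at 6.57, 7.9 and 12.9 CPM in saline, 8.25, 4.99 and 8.85 CPM in Ang II, and 6.26, 3.48 and 5.72 CPM in Ang II+NaBu. The highest library was saline replicate 3, and the Ang II+NaBu libraries were all below the saline ones. The means were 9.11 ± 3.32, 7.36 ± 2.07 and 5.16 ± 1.47 CPM. The log2 difference was -0.30 (SE 0.318, edgeR adjusted p = 0.962) for Ang II against saline, where it was 0.03 without saline replicate 3, -0.51 (SE 0.32, edgeR adjusted p = 0.376) for Ang II+NaBu against Ang II, and -0.82 (SE 0.321, edgeR adjusted p = 0.153) for Ang II+NaBu against saline. Although the 2 proteins form 1 complex, their transcripts did not keep a fixed proportion here, and S100a8 over S100a9 ran from 0.419 in saline replicate 3 to 1.23 in Ang II+NaBu replicate 4.

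Of 30 neutrophil genes listed, 16 passed the filter and 8 were at 0 in all 9 libraries, namely Camp, Prtn3, Ltf, Cxcr1, Np4, Defa5, RatNP-3b and Cd177, most of which encode granule proteins. Relative to saline, Ang II had 8 higher and 8 lower genes (median 0.03), with 0 called by edgeR and 0 by DESeq2. In edgeR 1 had an unadjusted p under 0.05, against 5.94% of all genes. The Ang II+NaBu group had 4 higher and 12 lower genes relative to Ang II (median -0.39), with 0 called, 3 at an unadjusted p under 0.05 (22.4% of all genes) and 1 called by DESeq2, Hp, which fell. Without Ang II replicate 1 it was 7 and 9. Among all genes in that comparison, 52.7% were lower in edgeR and DESeq2 gave 653 falls. Relative to saline, Ang II+NaBu had 6 higher and 10 lower genes (median -0.23), against 44.7% and 55.3% of all genes. There Hp, the haemoglobin-binding plasma protein haptoglobin that liver also makes, fell by 1.11 on the log2 scale (SE 0.247, edgeR adjusted p = 0.0363). That call was lost under total count scaling (adjusted p = 0.0511), with the highest transcript (0.0989), with only the 2 groups (0.0938), and without any one library other than saline replicate 3 (0.0506 to 0.152). Hp was between 3.11 and 3.36 CPM in saline, 2.31 and 3.04 in Ang II, and 1.33 and 1.67 in Ang II+NaBu. Of all genes tested, 2.05% fell in Ang II+NaBu against saline. Cxcr2, a chemokine receptor that guides neutrophils, was at 7.23, 3.54 and 6.1 CPM in the Ang II libraries, and Csf3r, the receptor for granulocyte colony-stimulating factor, at 12.9, 9.17 and 15.7 CPM, both lowest of the group in replicate 2. The 22 markers of other white cells had a median of -0.23 for Ang II against saline and -0.04 for Ang II+NaBu against Ang II. In each, 0 were called by edgeR. An unadjusted p under 0.05 was found for 4 and 1 of them, against 5.94% and 22.4% of all genes.

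Of the mast cell genes, Cpa3 and Cma1 had the lowest counts of the 10, and Kit was well covered. Cpa3 encodes carboxypeptidase A3, a granule protease of mast cells, and rested on 10 to 113 estimated counts per library. A sequenced fragment may count as about 4 of these, which is inferred from a pile-up of low values. Cpa3 was at 0.84, 1.7 and 0.385 CPM in saline, 2.71, 3.28 and 2.06 CPM in Ang II, and 2.13, 1.62 and 1.79 CPM in Ang II+NaBu. Every Ang II library was above every saline library, and the Ang II+NaBu libraries overlapped both groups. The means were 0.976 ± 0.669, 2.68 ± 0.613 and 1.85 ± 0.26 CPM. The log2 difference of Ang II against saline, 1.44 (SE 0.476, edgeR adjusted p = 0.743), was the largest of the 10 genes in that comparison and did not pass the test. It was -0.53 (SE 0.461, edgeR adjusted p = 0.534) for Ang II+NaBu against Ang II and 0.90 (SE 0.473, edgeR adjusted p = 0.271) for Ang II+NaBu against saline.

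Cma1 encodes a mast cell chymase, a serine protease, and rested on 16 to 63 estimated counts per library. It was at 1.89, 0.931 and 0.616 CPM in saline, 1.05, 0.813 and 0.924 CPM in Ang II, and 1.31, 0.681 and 0.354 CPM in Ang II+NaBu. The 3 groups overlapped throughout, with means of 1.15 ± 0.663, 0.93 ± 0.121 and 0.783 ± 0.488 CPM. The log2 difference was -0.30 (SE 0.603, edgeR adjusted p = 0.983) for Ang II against saline, where it was 0.26 without saline replicate 1. It was -0.25 (SE 0.605, edgeR adjusted p = 0.848) for Ang II+NaBu against Ang II and -0.56 (SE 0.605, edgeR adjusted p = 0.617) for Ang II+NaBu against saline.

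Kit encodes the receptor for stem cell factor, on which mast cells depend and which other cells also carry. Its levels were the steadiest of the 10 within saline, at 27.8, 27.1 and 27.3 CPM, and were 28.9, 25.5 and 27.1 CPM in Ang II and 24.9, 20.1 and 22.3 CPM in Ang II+NaBu. The saline and Ang II libraries overlapped, and the Ang II+NaBu libraries were below all 6 others. The means were 27.4 ± 0.373, 27.2 ± 1.74 and 22.4 ± 2.42 CPM. The log2 difference was -0.01 (SE 0.106, edgeR adjusted p = 0.997) for Ang II against saline, -0.28 (SE 0.106, edgeR adjusted p = 0.164) for Ang II+NaBu against Ang II and -0.29 (SE 0.106, edgeR adjusted p = 0.128) for Ang II+NaBu against saline. Cpa3 over Kit within a library ranged from 0.0141 in saline replicate 3 to 0.129 in Ang II replicate 2.

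Of 30 mast cell genes listed, 18 passed the filter, and Mcpt1, Mcpt4, Mcpt4l1, Mcpt8, Mcpt10 and Prg2 were at 0 in all 9 libraries. Ang II had 11 higher and 7 lower genes relative to saline (median 0.23), against 49% and 51% of all genes. Without Ang II replicate 1 it was 9 higher and 10 lower (median -0.03), and without saline replicate 3 it was 9 and 9 (median 0.01). Neither edgeR nor DESeq2 called any there, and 1 had an unadjusted p under 0.05 in edgeR, against 5.94% of all genes. For Ang II+NaBu against Ang II 7 were higher and 11 lower (median -0.24), against 47.3% and 52.7% of all genes. edgeR called 0, and 4 had an unadjusted p under 0.05 (22.4% of all genes). DESeq2 called 1, Mitf, which rose, beside 862 rises among all genes. Relative to saline, Ang II+NaBu had 7 higher and 11 lower (median -0.16), against 44.7% and 55.3% of all genes. There Mitf, a transcription factor of mast cells, melanocytes and also heart muscle, rose by 0.50 on the log2 scale (SE 0.094, edgeR adjusted p = 0.0248). The Mitf call was lost under total count scaling (adjusted p = 0.0655), with the highest transcript (0.104), with only the 2 groups (0.0741), without Ang II replicate 3 (0.0535), without any one Ang II+NaBu library (0.0675 to 0.12), and without saline replicates 2 and 3 (0.13). Mitf was between 64.7 and 73.7 CPM in saline, 69.1 and 79.6 in Ang II, and 94.7 and 101 in Ang II+NaBu. Of all genes tested, 3.01% rose in Ang II+NaBu against saline. The protease gene Mcpt1l1 was at 8.58, 4.41 and 6.08 CPM in Ang II, against 2.39 to 4.92 CPM in saline and 2.63 to 5.37 CPM in Ang II+NaBu. Rgs13, a regulator of receptor signalling in mast cells, was at 4.31, 6.76 and 4.5 CPM in Ang II and at 2.6, 3.27 and 2.91 CPM in Ang II+NaBu. Other listed genes went the other way for Ang II against saline. Cd200r1 differed there by -0.43 (SE 0.304), Hpgds by -0.24 (SE 0.396) and Slc18a2 by -0.21 (SE 0.181). For Ang II+NaBu against Ang II, Cd200r1 differed by 0.08 (SE 0.304), Hpgds by -0.38 (SE 0.398) and Slc18a2 by 0.41 (SE 0.181).

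Side by side, the 10 genes gave these counts. For Ang II against saline 7 were higher and 3 lower, against 49% and 51% of all genes tested, with a median of 0.62. In that comparison 4 (Alas2, Hbb, Slc4a1 and Cpa3) were higher and 0 lower without overlap, against 4.94% and 4.97% of all genes. edgeR called 0 of the 10 and 0% of all genes, and 6 of the 10 and 5.94% of all genes had an unadjusted p under 0.05. DESeq2 called 2 (Alas2 and Slc4a1), beside 23 rises and 34 falls among all genes. In Ang II+NaBu against Ang II all 10 were lower in this fit, against 52.7% of all genes (47.3% higher), with a median of -0.52, although Slc4a1 turned to 0.06 without Ang II replicate 3 and Cma1 to 0.10 without Ang II+NaBu replicate 6. There 4 (Hbb, Itga2b, Pf4 and Kit) were lower without overlap, against 17.5% of all genes (18.1% higher), 1 fell, against 0.957% (0.647% rose), and 6 had an unadjusted p under 0.05, against 22.4%. In Ang II+NaBu against saline 3 were higher and 7 lower, against 44.7% and 55.3% of all genes, with a median of -0.29 (all genes -0.051). Slc4a1 was higher and Itga2b, Pf4, S100a9 and Kit were lower without overlap, against 14.5% and 14.1% of all genes. Of the 10, 1 rose, against 3.01% (2.05% fell), and 4 had an unadjusted p under 0.05, against 24.6%.

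**Figure D4:**
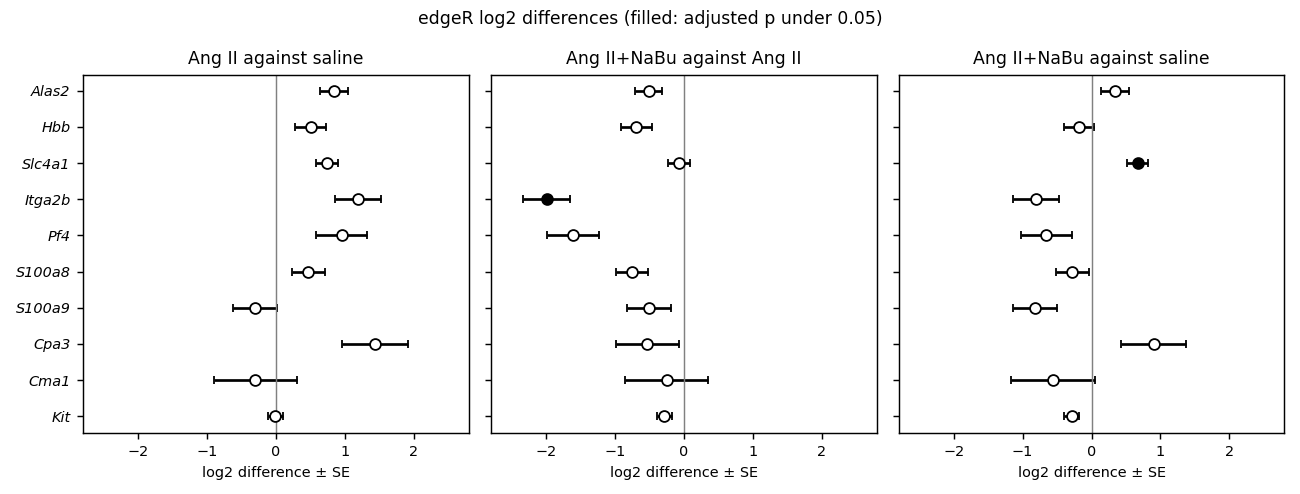
Log2 difference of each of the 10 genes in the 3 comparisons, from edgeR, with a bar of 1 SE on either side. Filled points have an adjusted p under 0.05. The filled points are Itga2b at -1.99 for Ang II+NaBu against Ang II and Slc4a1 at 0.67 for Ang II+NaBu against saline, and the bars of Cma1 are the longest.

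The genes whose levels followed 4 of these most closely were ranked by Pearson's r of log2 CPM over the 9 libraries, as a description with no test, since these libraries share 3 groups and the depth of each library. Nearest to Pf4 among 10160 genes with a mean of at least 5 CPM were Itga2b (r = 0.963) and Csf3r (0.962), the granulocyte receptor, followed by Rnf216 (0.94), Tssk4 (0.925) and Junb (0.923). Nearest to Alas2 were Fbxw2 (0.947), Nrk (0.944), the haemoglobin gene Hbb-b1 (0.932), Cdc25b (0.917) and Fam46c (0.901). Nearest to S100a8 were Yars (0.94), Prickle4 (0.939), Tssk4 (0.933), Rnf8 (0.926) and Parp10 (0.923), and S100a9 was at 0.49. Nearest to Cpa3, among 10161 genes, were Slc25a37 (0.944), Jam2 (0.934), Dis3 (0.93), Fbxo45 (0.923) and Utp11 (0.915). All 5 of these were lowest in saline replicate 3, as Cpa3 was. Within the 10 genes, Pf4 had r = 0.878 with S100a8, 0.82 with Hbb, 0.744 with Alas2 and 0.1 with Slc4a1.

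Summing the transcripts of a gene mattered most for Slc4a1. Its reads were divided between the curated RefSeq model (NM) and a predicted one (XM), and the NM model took 40.3%, 0% and 97.3% of the counts in the saline libraries, 3.37%, 68.2% and 98.7% in the Ang II libraries, and 97.2%, 99.7% and 98.5% in the Ang II+NaBu libraries. The saline and Ang II libraries thus covered almost the whole range within one group. In saline the gene's sum was between 710 and 759 estimated counts, which is 18.9 to 28.9 CPM after scaling. When each gene was represented by its highest transcript, Slc4a1 in Ang II+NaBu against saline differed by 1.56 on the log2 scale and was not called. S100a8 showed a like switch in a single library, with 85.4% on the NM model in Ang II+NaBu replicate 6 and between 3.45% and 11.4% in the other 8. The NM share of S100a9 ran from 38.2% to 99.7% and that of Kit from 15.3% to 52.5%. A real change of isoform and a division of shared reads between overlapping models cannot be told apart in these tables. Alas2, Hbb, Pf4, Cpa3 and Cma1 had 1 model each, and Itga2b had all its counts on 1 of 2 models except in Ang II replicate 3, where that share was 94.8%.

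**Figure D5:**
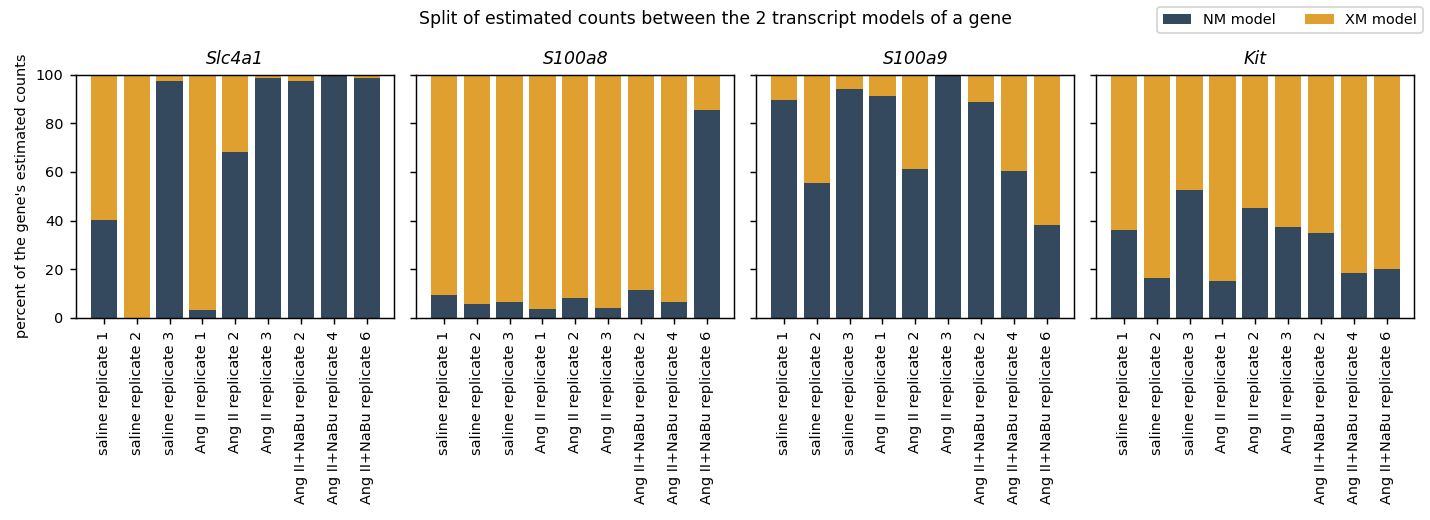
Percent of a gene's estimated counts on its NM (curated) and XM (predicted) RefSeq transcript model in each of the 9 libraries, for the 4 genes whose counts moved between models. Slc4a1 runs from 0% NM in saline replicate 2 to 99.7% in Ang II+NaBu replicate 4, and S100a8 is mostly XM except in Ang II+NaBu replicate 6.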

How the data were processed

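The 9 libraries came from 3 deposited tables of estimated counts per transcript, 1 per group, whose columns per the file headers are an ID, the gene and its libraries. The authors' estimated counts were whole numbers with no further scaling. Low values piled up weakly near multiples of 4, but 1 was about as common. In saline replicate 1, 519 transcripts were at 1 and 524 at 4. That 1 fragment counts as about 4 is inferred from this pile-up and stated by no source used here. A stray line-end character in the saline table, whose other values are the same deposited counts, was stripped. Per the submitters' processing notes, Bowtie 0.12.2 and the mouse build mm8 were named, although the transcript IDs are rat. No source used here gives the counting tool or strandedness. The series' design text speaks of tendon, so groups were taken from the sample labels. Each table holds 1 group, so table and group cannot be told apart. The Ang II+NaBu columns are numbered 2, 4 and 6, and are named so here.

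Transcripts were summed by gene name and tested with edgeR 4.0.16 (quasi-likelihood, TMM, filterByExpr, prior count 0.125) in R 4.3.3 on all 3 groups, with a common biological coefficient of variation of 0.256. DESeq2 1.42.0, other scalings and filters, single transcripts, a replicate block and leaving libraries out were alternatives. All 10 genes are named, and of each other list up to 6 per comparison, the called and then the most extreme with a mean of at least 1 CPM; Alox12, Gp1ba, Itgb3, Ppbp and Sptb were named after their values were seen. Genes and lists were chosen with earlier results of these data known. RefSeq GRCr8 promoters were matched by symbol. A gene of the red cell list is counted in the list's values and is not reported here by itself.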

Additional observations from a re-analysis of the deposited data

How the results depend on the processing

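Over 607 alternative values of the 10 genes from 21 settings, 570 kept their direction and side of the threshold, 19 lost a call, 8 gained one and 10 changed sign. The sign changed for S100a9 with Ang II against saline without saline replicate 3 (0.03; -0.49 to 0.03 when a library was left out) and without saline replicates 2 and 3 (0.17). It changed for Cma1 without saline replicate 1 (0.26 with Ang II, range -0.60 to 0.26, and 0.01 with Ang II+NaBu, range -1.15 to 0.01, each against saline) and without Ang II+NaBu replicate 6 (0.10 against Ang II, range -0.85 to 0.10). It changed for Kit with Ang II against saline under total count scaling (0.04), with the highest transcript per gene (0.07) and without Ang II replicate 2 (0.04, range -0.04 to 0.04), and for Slc4a1 with Ang II+NaBu against Ang II with the highest transcript per gene (0.64) and without Ang II replicate 3 (0.06, range -0.12 to 0.06). The number of the 10 genes called with Ang II against saline was 0, and 2 with DESeq2; leaving out a library gave 0 each time. With Ang II+NaBu against Ang II it was 1, but 0 under total count scaling and with the highest transcript, 2 with counts divided by 4, with only the 2 groups and without saline replicates 2 and 3, 3 with DESeq2, and 0 to 2 when a library was left out. With Ang II+NaBu against saline it was 1, but 0 with the highest transcript, with only the 2 groups and without saline replicates 2 and 3, and 0 to 1 when a library was left out. The cause was not tested. Same-numbered saline and Ang II libraries did not deviate together (r from -0.033 to 0.008), and a fit with the replicate block called 0 of the 10; the Ang II+NaBu numbers match no others. Over all genes, Ang II+NaBu against Ang II gave 100 rises and 148 falls (40.3% rises), 87 and 209 with upper-quartile scaling (29.4%), 2 and 2 under total count scaling, where the median of all genes was -0.133, 862 and 653 with DESeq2, 1082 and 720 with only the 2 groups, 2 and 3 with the highest transcript, and from 1 and 0 to 968 and 514 when a library was left out. Ang II+NaBu against saline gave 465 and 317 (59.5%), 383 and 396 with upper-quartile scaling (49.2%), 287 and 124 under total count scaling (69.8%), 1233 and 757 with DESeq2, 5 and 4 with only the 2 groups, 16 and 5 with the highest transcript, and from 3 and 3 to 769 and 534 when a library was left out. Ang II against saline gave 0, 23 and 34 with DESeq2, 10 and 1 without saline replicates 2 and 3, 2 and 1 with the highest transcript, 0 and 1 with only the 2 groups, and from 0 and 0 to 4 and 3 when a library was left out. Cma1 was not tested with counts divided by 4. Cpa3 and Cma1 rest on the fewest counts.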
